A study of Drosophila melanogaster with 27 samples.

Results

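Tumour and control leg imaginal discs of Drosophila melanogaster were compared by RNA sequencing. The comparison uses 4 of the 27 libraries of the study, 2 from control and 2 from tumour leg discs, and all genes of the count table were kept after the summary lines of the counting program were dropped. Control larvae carried hh-Gal4 and UAS-GFP over UAS-luc-RNAi and were collected on day 5. Tumour larvae carried UAS-scrib-RNAi and UAS-Ras[v12] on 1 chromosome with hh-Gal4, UAS-GFP and a UAS-luci-RNAi hairpin, and were collected on day 9 (replicate 1) and day 11 (replicate 2). The luciferase hairpin, GFP and the driver were thus common to both groups. All larvae were wandering larvae of the last instar, raised at 25 °C. The discs of 35 to 50 larvae went into each library, and the replicates were separate dissections. Each library therefore averages many animals and all cells of their leg discs.

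The leg disc is a larval epithelial sac that turns inside out at metamorphosis to form an adult leg. Its posterior cells make the signal Hedgehog, which the anterior cells along the compartment border receive, and these turn on Wingless ventrally and Dpp dorsally. Where both meet, the genes Dll and dac and the tarsal genes al, Lim1 and bab are switched on in nested rings, and Notch signalling between the rings then forms the joints. The hh-Gal4 driver acts in posterior cells only, so that anterior cells of the tumour discs carried the transgenes, which the driver does not switch on there. Loss of Scribble, which keeps epithelial cells polarised, together with active Ras makes such discs overgrow, and the larvae do not pupariate on time. Tumour larvae were older than control larvae, so that genotype and age cannot be told apart in any value below.

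A level is given in CPM, a gene's share of all reads assigned to genes on the usual scale of that name, adjusted between libraries, and in each pair of values replicate 1 comes before replicate 2. A change is the log2 ratio of tumour over control with its standard error. A gene was called when its p in edgeR's quasi-likelihood F-test, adjusted by Benjamini-Hochberg over all genes tested, was under 0.05, and "rose" and "fell" are used of called genes only. Of 9814 genes tested, 3759 were called (38.3%). Of these, 1937 rose (19.7% of those tested) and 1822 fell (18.6%), and 864 and 633 of them changed at least 2-fold. All 27 libraries were fitted, and the spread between replicates was shared over the groups with 2 libraries, with 12 residual degrees of freedom. With the 4 leg libraries alone, which leave 2 residual degrees of freedom, 2135 genes were called. The median change over all genes tested was -0.001. These percentages are the background for every count of genes below. In whole discs, fewer cells of a type and less RNA per cell cannot be told apart.

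**Figure D1:**
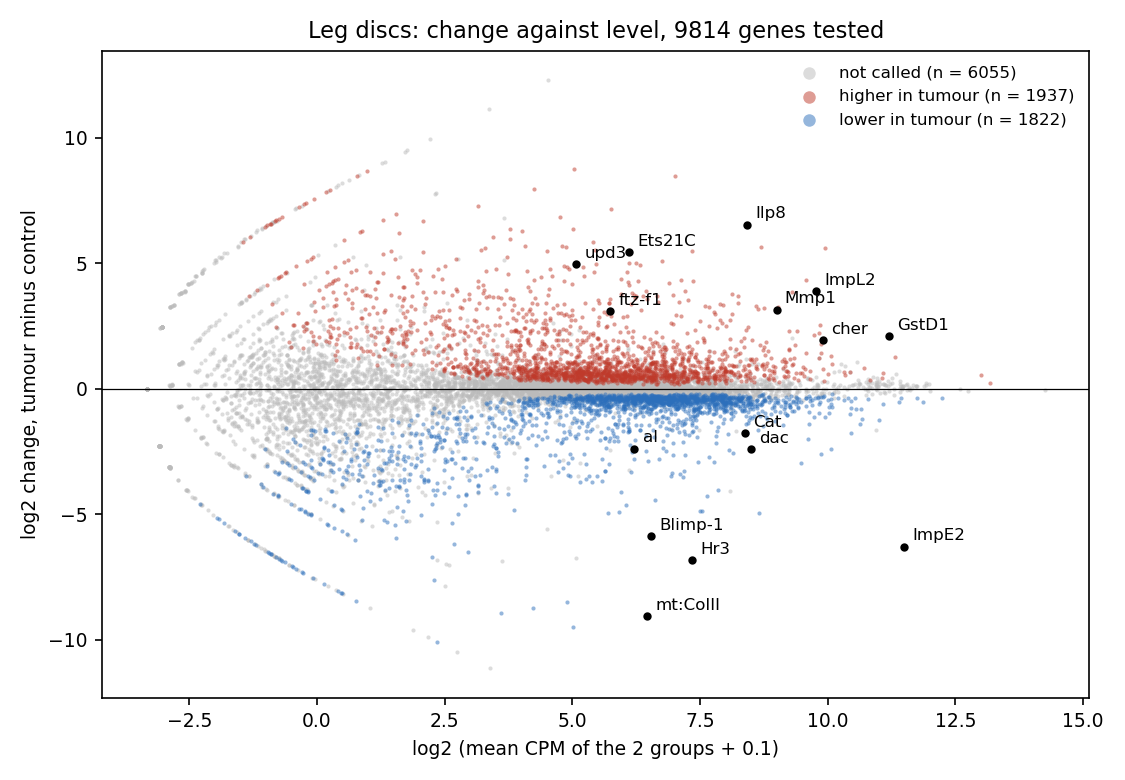
Change between tumour and control leg discs against the mean level of each gene tested. Each point is 1 gene, red where called higher and blue where called lower in tumour discs, and the named genes in black are described in the text; the 1937 rises and 1822 falls spread over the whole range of levels.

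The leg libraries held 12.5 to 16.01 M reads assigned to genes, and replicates correlated at 0.977 (control) and 0.98 (tumour) in log2(CPM + 1). Of all alignment lines, those of reads with several placements were 16.2% and 22.9% in control and 68.3% and 54.4% in tumour libraries. The tissue label was checked against defining genes. In control libraries the leg gene Sp1 was at 586 and 617 CPM in leg discs, against 59 and 46.8 CPM in eye-antennal and 17 and 25.5 CPM in wing discs. The related gene btd was at 54.4 and 59.9 CPM in leg discs and at most 7.35 CPM in the other control discs. Scr, a Hox gene that sets first leg identity, was at 452 and 513 CPM in leg discs and at most 15.5 CPM in the other control discs.

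Both control libraries stood apart from each other in transcripts of other tissues. Control replicate 1 had more neuronal RNA, with brp, a protein of the presynaptic active zone, at 29.3 CPM against 3.86 CPM in replicate 2. It also had the gut protease transcript Jon65Aiv at 132 CPM against 1.62 CPM. Control replicate 2 held small amounts of transcripts that were otherwise near 0 in control discs. For 14 genes chosen as under 0.5 CPM in every other control library and at least 5 CPM in both leg tumour libraries, its level was a median of 2.87% of the leg tumour level (range 1.32% to 18.97%), and 11 of them reached 0.5 CPM there. The same choice made for each of the other 5 control libraries in turn gave 3 to 6 genes, of which 0 to 3 reached 0.5 CPM in that library. Control replicate 2 also had more salivary gland RNA, with Sgs3 at 18.8 CPM against 1.1 CPM. The heat shock gene Hsp68 was higher there too, at 466 CPM against 25.1 CPM. For Hsp68 this split was not particular to leg discs. Replicates 1 and 2 were at 83.9 and 340.6 CPM in control eye-antennal and 98.9 and 344.5 CPM in control wing discs. The part of these differences between control libraries in the changes below was not tested, other than by leaving out each library in turn. Of 176 called genes followed in this way, most but not all stayed called without any 1 of the 4 libraries. Where a call is said to have ended, the library named is one without which it ended. A change given as without a library is that of the fit that left it out, and does not by itself mean a lost call.

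The genes that the tumour transgenes carry or target were read first. Ras85D (FBgn0003205), which the Ras[v12] transgene is a form of, was at 284 and 314 CPM in control and 1133 and 679.9 CPM in tumour libraries, a change of 1.60 ± 0.30 (adjusted p = 0.000763). The day 9 library was the higher of the tumour libraries, and both were above both controls. The count does not separate the transgene from the gene's own transcripts. The hairpin target scrib (FBgn0263289) was at 360.5 and 380.3 CPM in control and 270.3 and 254 CPM in tumour libraries (-0.50 ± 0.13, adjusted p = 0.00678). Both tumour libraries were below both controls, and the remaining level includes the anterior cells.

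The 12 largest rises among genes with at least 10 CPM in the higher group and no overlap between groups were CG9521, CG12911, Cpr64Ac, CG34034, Cyp6a17, CG14695, Ilp8, CG12607, CG17108, FBgn0030591, CG5646 and CG40485, with adjusted p from 7.75e-07 to 0.0406. Apart from Ilp8, all were at 1.42 CPM or less in both control libraries. Since most of their control counts were a few reads, levels and not folds are given. CG12911 was at 1.1 and 0.338 CPM in control and 352 and 164 CPM in tumour libraries, the highest tumour level of these genes after Ilp8. Cyp6a17, a cytochrome P450, was at 0 and 1.42 CPM in control and 146 and 68.8 CPM in tumour libraries. CG14695 was at 0 and 0.879 CPM in control and 51.9 and 55.4 CPM in tumour libraries, and CG40485 at 0.587 and 0.271 CPM and 25.8 and 27.9 CPM. In these 4 genes both tumour libraries were far above both controls. Some others were high mainly in the day 9 tumour library. The cuticle protein gene Cpr64Ac was at 74.5 and 0.946 CPM in tumour libraries, CG34034 at 32.5 and 2.33 CPM and the gene FBgn0030591 at 61.9 and 1.16 CPM. Without tumour replicate 1, or without control replicate 1, these 3 calls ended, and those of Cpr64Ac and FBgn0030591 also without control replicate 2.

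The 12 largest falls were mt:ND4, mt:CoIII, mt:ND5, Reepl1, mt:ND1, Hr3, CG34377, ImpE2, CG8997, Blimp-1, CG15236 and CG2663, with adjusted p from 5.84e-11 to 0.0498. They include 4 genes of the mitochondrial genome and 3 ecdysone-regulated genes, which are described with their lists. Reepl1 was at 36.2 and 38.8 CPM in control libraries and had 0 and 2 reads in tumour libraries. CG2663 was at 7.55 and 18.5 CPM in control and 0.353 and 0.436 CPM in tumour libraries. The calls of CG8997 (23.8 and 1.28 CPM in control libraries) and CG15236 (17.9 and 6.09 CPM) ended without control replicate 1, where both were higher, and also without either tumour library.

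Genes were then read by pathway, from 34 lists that hold 405 distinct tested genes, of which 100 rose and 129 fell.

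**Figure D2:**
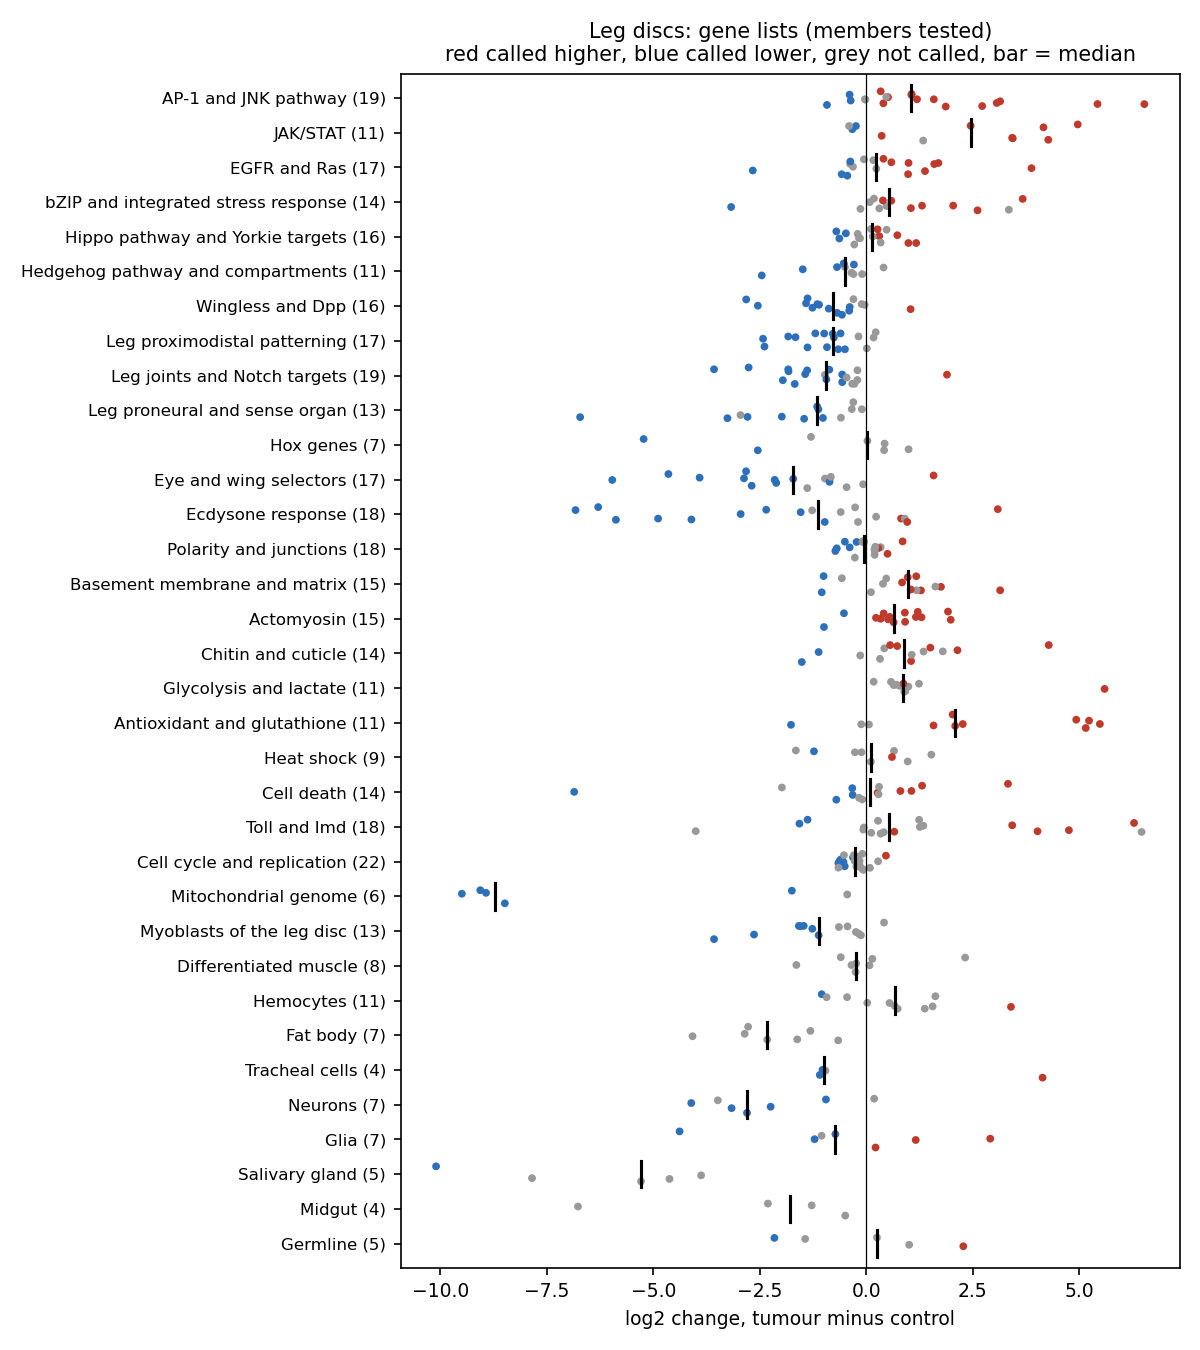
Change of every tested member of the 34 gene lists. Each point is 1 gene, red where it rose, blue where it fell and grey where it was not called, the black bar is the list's median, and the number of members tested stands in brackets; the JNK and JAK/STAT lists at the top lie mostly to the right of 0, and those of leg patterning, joints, proneural genes and ecdysone response to the left. Many of the most extreme fitted changes, such as those of the mitochondrial genome and of Sgs3, belong to genes with few or no reads in one group and depend on the fit.

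Most genes listed for Jun kinase signalling, which answers stress and loss of polarity through the transcription factor AP-1, rose in tumour discs. Of 19 tested members of the AP-1 and JNK list, 13 rose and 3 fell, with a median change of 1.06. The AP-1 subunit gene kay (Fos) was at 121 and 174 CPM in control and 586 and 301 CPM in tumour libraries, a change of 1.59 ± 0.35 (adjusted p = 0.0026). Its partner Jra (Jun) went from 53.6 and 70.1 CPM to 148 and 112 CPM (1.07 ± 0.22, adjusted p = 0.00139). The phosphatase gene puc, a feedback inhibitor that JNK induces, went from 39 and 45.5 CPM to 194 and 114 CPM (1.87 ± 0.26, adjusted p = 6.9e-05). In these 3 genes the day 9 library was the higher tumour library and neither overlapped the controls.

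Some other genes linked to the pathway rose further, and their dependence on it was not tested here. Mmp1, a secreted matrix metalloproteinase, was at 67.4 and 139.9 CPM in control and 1087 and 752 CPM in tumour libraries (3.15 ± 0.41, adjusted p = 3.71e-05, and 3.76 without control replicate 2). Ets21C, an ETS transcription factor, rose from 1.32 and 4.8 CPM to 168 and 101 CPM (5.44 ± 0.55, adjusted p = 4.85e-06, with 4.80 without control replicate 1 and 6.65 without control replicate 2). Atf3, a bZIP factor, rose from 11.5 and 9.54 CPM to 108 and 68.9 CPM (3.07 ± 0.32, adjusted p = 5.25e-06). Each of these 3 genes stood in both tumour libraries far above the higher control. Ilp8, the relaxin-like peptide with which damaged discs delay pupariation, was at 0.293 and 14.2 CPM in control and 587 and 774 CPM in tumour libraries (6.53 ± 0.95, adjusted p = 0.00013). It was higher in the day 11 library, and its control level came almost wholly from control replicate 2, without which the change was 11.14 and without the other control 5.58. Upstream members moved less or the other way. The ligand gene egr (Eiger, the fly TNF) went from 30 and 37.4 CPM to 21.5 and 14.2 CPM (-0.92 ± 0.23, adjusted p = 0.00592), a call that ended without tumour replicate 2, while its receptor gene grnd rose from 116 and 118 CPM to 166 and 144 CPM (0.41 ± 0.09). The kinase gene bsk (JNK itself) fell (-0.36 ± 0.08), from 123 and 122 CPM to 90 and 101 CPM (adjusted p = 0.0024).

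The cytokine ligands of the JAK/STAT pathway, which drives growth and regeneration, rose together. Of 11 tested members 7 rose and 2 fell, with a median of 2.46. The ligand gene upd1 was at 6.82 and 10.9 CPM in control and 95.1 and 96.5 CPM in tumour libraries (3.43 ± 0.41, adjusted p = 1.8e-05). The ligand upd2 went from 1.47 and 5.21 CPM to 70.1 and 50.9 CPM (4.17 ± 0.56, adjusted p = 5.21e-05, with 3.54 without control replicate 1 and 5.35 without control replicate 2), and upd3 from 1.69 and 2.44 CPM to 70 and 60.2 CPM (4.97 ± 0.48, adjusted p = 3.06e-06). For all 3 ligands the tumour libraries lay close together and far above both controls. Socs36E, the feedback inhibitor that STAT induces, rose from 90.3 and 122 CPM to 674 and 493 CPM (2.46 ± 0.20, adjusted p = 6.32e-07). The zinc finger gene chinmo, a target of the pathway in several tissues, rose from 20.4 and 12 CPM to 334 and 295 CPM (4.28 ± 0.40, adjusted p = 2.35e-06). The signal chain itself moved both ways. The receptor gene dome rose by 0.37 ± 0.11, and the kinase gene hop and the transcription factor gene Stat92E fell, with changes of -0.32 and -0.24. The call of dome ended without control or tumour replicate 1, that of hop without control or tumour replicate 2 and that of Stat92E when any 1 of the 4 libraries was left out.

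Feedback inhibitors of the EGFR and Ras pathway rose, while the receptor and kinases fell. Of 17 tested members 8 rose, Ras85D among them, and 4 fell, with a median of 0.24. The secreted inhibitor gene aos was at 28.1 and 44.9 CPM in control and 152 and 84.7 CPM in tumour libraries (1.70 ± 0.31, adjusted p = 0.000602). The inhibitor sty (Sprouty) rose from 149.9 and 184 CPM to 552 and 319.6 CPM (1.38 ± 0.24, adjusted p = 0.000443), and the ERK phosphatase gene Mkp3 from 77.5 and 92 CPM to 183 and 152 CPM (0.99 ± 0.15, adjusted p = 0.000121). The ETS factor gene pnt, the main nuclear output, rose from 70.6 and 78.1 CPM to 178 and 119 CPM (1.00 ± 0.17, adjusted p = 0.000436). All 4 were higher on day 9 than on day 11, and none overlapped the controls. ImpL2, which binds and blocks insulin-like peptides, rose from 85 and 137 CPM to 2405 and 880.1 CPM (3.88 ± 0.51, adjusted p = 4.52e-05, and 2.98 without tumour replicate 1). Egfr fell from 332 and 347 CPM to 229 and 226 CPM (-0.57 ± 0.13, adjusted p = 0.00316), and so did the MEK gene Dsor1 (-0.37 ± 0.12) and the ERK gene rl (-0.44 ± 0.12). The call of rl ended without control replicate 1 or tumour replicate 2, and that of Dsor1 also without tumour replicate 1.

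Among bZIP and stress genes 7 of 14 tested members rose and 1 fell, with a median of 0.54. Irbp18 (CG6272), a C/EBP-like bZIP factor, was at 14.5 and 16.4 CPM in control and 81.5 and 46.5 CPM in tumour libraries (2.05 ± 0.32, adjusted p = 0.000186). Its partner Xrp1 rose from 530.0 and 695 CPM to 1767 and 1278 CPM (1.31 ± 0.21, adjusted p = 0.000182). Gadd45, a stress gene that binds MAP kinase kinase kinases in mammals, rose from 24.9 and 43.8 CPM to 273 and 149.8 CPM (2.62 ± 0.31, adjusted p = 1.79e-05). In all 3 the day 9 library was the highest of the 4. The translation inhibitor gene Thor was at 7.12 and 22.1 CPM and 317 and 58 CPM (3.68 ± 0.97, adjusted p = 0.00865), a call that ended without tumour replicate 1 (1.98) or control replicate 1, while the change was 4.70 without control replicate 2. Fewer members of the list were called without tumour replicate 1 or control replicate 1, and more without tumour replicate 2.

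The Hippo list, whose kinases restrain the coactivator Yorkie, was mixed. Of 16 tested members 5 rose and 3 fell, with a median of 0.14. Among the genes that Yorkie is known to induce, fj was at 232 and 243 CPM in control and 499 and 573 CPM in tumour libraries (1.18 ± 0.17, adjusted p = 7.86e-05), and dally, a proteoglycan of signal gradients, went from 396 and 465 CPM to 979.7 and 735 CPM (0.99 ± 0.16, adjusted p = 0.00019). These targets rose, and others fell: CycE went from 95.8 and 86.2 CPM to 50.9 and 66.7 CPM (-0.63 ± 0.12, adjusted p = 0.000921), and the caspase inhibitor gene Diap1 from 600.5 and 743 CPM to 469.7 and 358 CPM (-0.70 ± 0.20, adjusted p = 0.0129), a call that ended without control replicate 2 or tumour replicate 2. The coactivator gene yki and its partner sd were at 107 and 128 CPM and at 354 and 362 CPM in control libraries. In tumour libraries yki was at 110.1 and 103 CPM and was not called, and sd was at 266 and 248 CPM (-0.48 ± 0.17, adjusted p = 0.035), a call that ended when any 1 of the 4 libraries was left out. The number called was 4 without control replicate 1 or tumour replicate 1 and 5 without tumour replicate 2.

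Genes that pattern the leg along its proximodistal axis fell. Of 17 tested members of this list none rose and 13 fell, with a median of -0.78. No member was called higher at an unadjusted p under 0.05 in edgeR, nor by limma-voom or DESeq2, and 9 to 11 members were called without 1 library. The homeodomain gene al, of the most distal ring, was at 101 and 148 CPM in control and 23.6 and 24 CPM in tumour libraries (-2.39 ± 0.20, adjusted p = 9.85e-07). The nuclear factor gene dac, of the middle segments, went from 569 and 651 CPM to 87.3 and 140.3 CPM (-2.42 ± 0.37, adjusted p = 0.00018). Lim1, a LIM homeodomain gene of the distal tip, went from 103 and 125 CPM to 55.8 and 65 CPM (-0.92 ± 0.18, adjusted p = 0.00101). In all 3 both tumour libraries were below both controls, and dac was lower on day 9 than on day 11.

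Tarsal and proximal members fell as well. The BTB factor genes bab1 and bab2 of the tarsus were at 27.9 and 29.5 CPM and 345 and 392 CPM in control libraries, and at 10.1 and 6.04 CPM and 214 and 158 CPM in tumour libraries (-1.83 ± 0.33, adjusted p = 0.000602, and -0.98 ± 0.23, adjusted p = 0.00337). The Bar homeobox gene B-H1 fell from 17.3 and 21 CPM to 7.59 and 9.17 CPM (-1.19 ± 0.21, adjusted p = 0.000493). The leg-inducing zinc finger genes Sp1 and btd fell from 586 and 617 CPM to 160.0 and 221 CPM and from 54.4 and 59.9 CPM to 16.1 and 27.9 CPM (-1.66 ± 0.32, adjusted p = 0.00102, and -1.38 ± 0.31, adjusted p = 0.00303). The groups did not overlap in any of these 5 genes, and the day 9 library was the lower one for Sp1, btd and B-H1. Dll, which sets the distal leg as a whole, was at 307 and 296 CPM and 153 and 197 CPM (-0.78 ± 0.29, adjusted p = 0.044), and its call ended without any 1 of the 4 libraries. The proximal cofactor gene exd fell from 451 and 445 CPM to 295 and 296 CPM (-0.60 ± 0.08, adjusted p = 3.36e-05). The proximal genes tsh and tio were at 374 and 392 CPM and at 44.1 and 44.8 CPM in control and at 434 and 431 CPM and 55.7 and 48.3 CPM in tumour libraries, and neither was called.

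**Figure D3:**
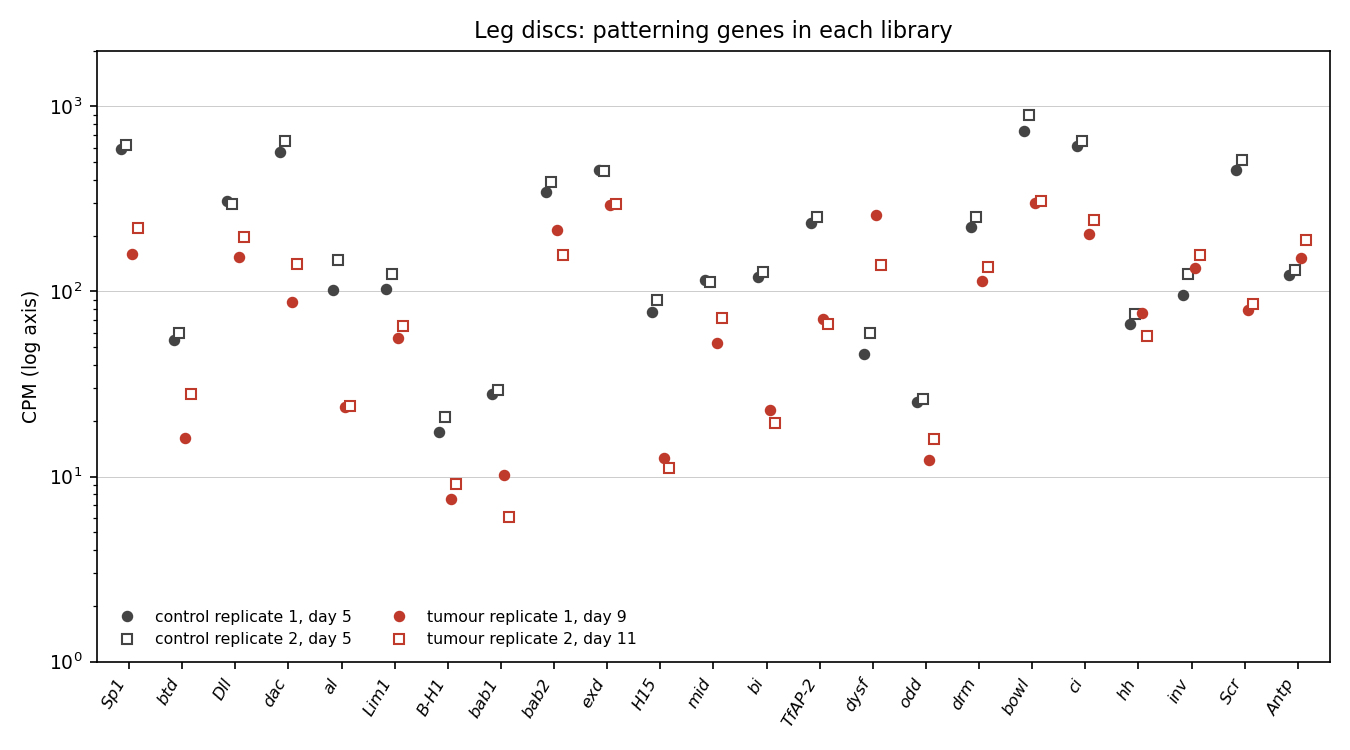
Level of 23 patterning genes in each of the 4 leg libraries, in CPM on a log axis. Grey marks are control and red marks tumour libraries, filled circles replicate 1 and open squares replicate 2; the red marks lie below the grey ones for genes of the proximodistal axis, the ventral and dorsal genes, the joint genes TfAP-2, odd, drm and bowl, ci and Scr, above them for dysf, inv and Antp, of which only dysf was called, and among them for hh.

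Targets of Wingless and Dpp fell too. Of 16 tested members 12 fell and 1 rose, with a median of -0.78. The ventral T-box gene H15 was at 77.4 and 89.8 CPM in control and 12.6 and 11.1 CPM in tumour libraries (-2.82 ± 0.32, adjusted p = 1.08e-05). Its sister gene mid went from 116 and 113 CPM to 52.8 and 71.9 CPM (-0.88 ± 0.18, adjusted p = 0.00178). The dorsal T-box gene bi, a target of Dpp, went from 119 and 127 CPM to 22.8 and 19.6 CPM (-2.54 ± 0.17, adjusted p = 9.45e-08). Ventral and dorsal genes were thus both lower, in both tumour libraries, and bi and H15 fell further than mid.

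Feedback genes of both pathways were lower. The Dpp inhibitor gene Dad fell from 141 and 158 CPM to 69.4 and 65.9 CPM (-1.14 ± 0.11, adjusted p = 2.42e-06), and the Wingless inhibitors nkd and Notum from 329 and 443 CPM to 198 and 161 CPM and from 20.8 and 25.4 CPM to 11.2 and 8.07 CPM (-1.10 ± 0.15, adjusted p = 6.48e-05, and -1.26 ± 0.25, adjusted p = 0.00122). The Wingless receptor genes fz and arr went from 174 and 211 CPM to 70.1 and 74.6 CPM and from 341 and 371 CPM to 134 and 141 CPM (-1.41 ± 0.12 and -1.37 ± 0.16). The 1 member that rose was brk, a repressor that Dpp signalling shuts off, from 98.9 and 131 CPM to 238 and 235 CPM (1.04 ± 0.16, adjusted p = 0.000181). The gene dpp itself was at 76.1 and 83.3 CPM in control and 74 and 55.7 CPM in tumour libraries and was not called.

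The posterior markers hh, inv and en were not called, while the Hedgehog effector genes ci and smo fell. Of 11 tested Hedgehog and compartment genes none rose and 5 fell, with a median of -0.50; at an unadjusted p under 0.05 in edgeR 1 was higher, and by limma-voom and DESeq2 none. The ligand hh, whose enhancer drives the transgenes, was at 66.4 and 76 CPM in control and 76 and 57.5 CPM in tumour libraries (-0.09 ± 0.15, adjusted p = 0.664). The posterior selector gene inv was at 95.2 and 124 CPM and 134 and 157 CPM (0.41 ± 0.18, adjusted p = 0.0913), and en at 103 and 111 CPM and 66 and 85.8 CPM (-0.50 ± 0.25, adjusted p = 0.137). Of these 3 genes the groups overlapped for hh. The anterior transcription factor gene ci went from 608 and 648 CPM to 204 and 244 CPM (-1.49 ± 0.14, adjusted p = 2.53e-06), and the signal transducer smo from 161 and 159 CPM to 99.9 and 99.2 CPM (-0.68 ± 0.12, adjusted p = 0.000419). Both were lower in both tumour libraries. Without tumour replicate 2 the list held 2 called genes and without control replicate 2 it held 3.

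Genes of the joints and of Notch signalling were lower with 1 exception. Of 19 tested members 12 fell and 1 rose, with a median of -0.93. TfAP-2, which Notch turns on at each joint, was at 235 and 254 CPM in control and 71 and 66.7 CPM in tumour libraries (-1.83 ± 0.26, adjusted p = 6.8e-05). Of the odd-skipped family, which acts in the fold of each joint, drm went from 223 and 254 CPM to 114 and 136 CPM (-0.93 ± 0.12, adjusted p = 4.65e-05) and odd from 25.2 and 26.2 CPM to 12.3 and 15.9 CPM (-0.86 ± 0.18, adjusted p = 0.00144). The related gene bowl fell from 734 and 899 CPM to 299 and 306 CPM (-1.43 ± 0.13, adjusted p = 2.22e-06). In these 4 genes neither tumour library reached a control. Direct Notch targets fell in part: E(spl)m7-HLH went from 40.6 and 52.8 CPM to 15.8 and 13.5 CPM (-1.68 ± 0.19, adjusted p = 1.07e-05) and E(spl)m2-BFM from 72.8 and 85.3 CPM to 19.9 and 20.9 CPM (-1.96 ± 0.28, adjusted p = 8.85e-05), while N itself, at 704 and 724 CPM and 655 and 524 CPM, was not called. The exception was dysf, a bHLH-PAS factor of the tarsal joints, which rose from 46.1 and 60 CPM to 258 and 138 CPM (1.90 ± 0.30, adjusted p = 0.000185).

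Proneural genes, which start sense organs, fell in 8 of 13 tested members (median -1.15). None rose, neither at an unadjusted p under 0.05 in edgeR nor by limma-voom or DESeq2. The bHLH gene sc was at 56.3 and 68.5 CPM in control and 15.7 and 15.9 CPM in tumour libraries (-1.98 ± 0.27, adjusted p = 4.78e-05). The precursor gene sens went from 9.24 and 10.8 CPM to 1.06 and 1.02 CPM (-3.26 ± 0.44, adjusted p = 5.36e-05). The secreted factor gene sca went from 104 and 117 CPM to 44.9 and 35.9 CPM (-1.46 ± 0.20, adjusted p = 4.86e-05). Both tumour libraries were below both controls in all 3. The gene cato had 12 and 15 reads in control and none in tumour libraries. Without tumour replicate 2, 5 members were called. The neural precursor gene pros was at 112 and 13.4 CPM in control and 6.97 and 9.17 CPM in tumour libraries and was not called, and control replicate 1 is the library with more neuronal RNA.

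Of 7 tested Hox genes 2 fell and none rose, with a median of 0.03, and none was higher at an unadjusted p under 0.05 in edgeR or by limma-voom or DESeq2. Scr was at 452 and 513 CPM in control and 79.5 and 85.8 CPM in tumour libraries (-2.54 ± 0.63, adjusted p = 0.00596), and both tumour libraries were far below both controls. Antp, the Hox gene of the second thoracic segment, was at 123 and 129.9 CPM and 151 and 190.4 CPM (0.43 ± 0.86, adjusted p = 0.722). It was higher in both tumour libraries but was not called. The number of discs of each leg pair in a library is not given in the sources used here. The other called gene was abd-A, at 8.51 and 0.812 CPM in control libraries and 0 and 0.218 CPM in tumour libraries, a call that ended without control replicate 1 or either tumour library, and without control replicate 1 or either tumour library the list held 1 call.

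Selector genes of other discs fell in 10 of 17 tested members and rose in 1 (median -1.71). The eye gene eya was at 21.4 and 27.9 CPM in control and 5.91 and 5.24 CPM in tumour libraries (-2.15 ± 0.40, adjusted p = 0.000768). The eye gene gl was at 5.72 and 5.34 CPM in control libraries and had 1 read in each tumour library. In control eye-antennal discs gl was at 207 and 230 CPM, and in control wing discs at 0.0835 and 0.369 CPM. Whether the transcripts of these selector genes in leg controls came from leg cells or from other tissue carried over was not tested. The dorsal T-box gene Doc2 went from 9.1 and 12.6 CPM to 1.15 and 1.89 CPM (-2.82 ± 0.37, adjusted p = 3.91e-05). The Iroquois gene ara went from 64.4 and 79.5 CPM to 22.9 and 21 CPM (-1.71 ± 0.16, adjusted p = 2.46e-06). In all 4 both controls were above both tumour libraries.

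Of 18 tested genes listed for the response to the moulting hormone ecdysone, 9 fell and 3 rose in tumour discs, with a median of -1.12. The secreted protein gene ImpE2 was at 4717 and 6615 CPM in control and 76.8 and 67.9 CPM in tumour libraries (-6.29 ± 0.98, adjusted p = 0.000228). The nuclear receptor gene Hr3 went from 214 and 426 CPM to 3.44 and 2.25 CPM (-6.82 ± 1.33, adjusted p = 0.00128), and the repressor gene Blimp-1 from 148 and 218 CPM to 3 and 3.2 CPM (-5.88 ± 1.22, adjusted p = 0.00192). In these 3 genes control replicate 2 was the highest library, and both tumour libraries were far below both controls. ImpE1 and ImpE3 went from 1020.0 and 1519 CPM to 206 and 124 CPM and from 266 and 438 CPM to 15.2 and 8.8 CPM. Eip78C and Eip75B, early genes for nuclear receptors, also fell (-4.10 ± 0.68 and -1.54 ± 0.22). Sb, a protease that discs need to evert into legs, went from 68.6 and 101 CPM to 18.4 and 15 CPM (-2.35 ± 0.40, adjusted p = 0.000388).

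The 3 genes that rose were the receptor gene EcR, Eip63E and ftz-f1. EcR was at 146 and 146 CPM in control and 287 and 229 CPM in tumour libraries (0.82 ± 0.15, adjusted p = 0.000712). The nuclear receptor gene ftz-f1, which in normal development is on after the ecdysone peak has passed, rose from 11.8 and 10.5 CPM to 105 and 85.5 CPM (3.09 ± 0.31, adjusted p = 3.32e-06). For both, neither tumour library overlapped the controls. All larvae were collected at the wandering stage, and the position of each library in the hormone cycle was not measured.

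Genes of the cytoskeleton rose: of 15 tested actomyosin genes 13 rose and 2 fell, with a median of 0.65, and 11 were called in each fit without 1 library. The filamin gene cher, which crosslinks actin, was at 385 and 416 CPM in control and 1539 and 1497 CPM in tumour libraries (1.92 ± 0.14, adjusted p = 1.83e-07). Genes of integrin adhesions rose with it: Pax (paxillin) went from 97.5 and 122 CPM to 477 and 396 CPM (1.99 ± 0.17, adjusted p = 1.08e-06) and Vinc (vinculin) from 133 and 169 CPM to 442 and 302 CPM (1.30 ± 0.22, adjusted p = 0.000335). The fascin gene sn, which bundles actin, went from 355 and 404 CPM to 954 and 753 CPM (1.17 ± 0.19, adjusted p = 0.000286). Tumour libraries were above both controls in all 4. The myosin light chain gene sqh rose by 0.91 and the ERM gene Moe by 0.56. The 2 falls were jar (myosin VI), from 551 and 712 CPM to 335 and 301 CPM (-0.99 ± 0.13, adjusted p = 3.22e-05), and Zyx, a gene of adhesion sites (-0.52 ± 0.14, not called without tumour replicate 2).

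Matrix and integrin genes rose in 7 of 15 tested members and fell in 2 (median 0.98). The integrin beta subunit gene mys was at 322 and 373 CPM in control and 918 and 654 CPM in tumour libraries (1.18 ± 0.18, adjusted p = 0.000125), and the alpha subunit gene mew at 152 and 175 CPM and 371 and 273 CPM (0.98 ± 0.20, adjusted p = 0.00126). The metalloproteinase inhibitor gene Timp rose from 5.79 and 7.71 CPM to 23.6 and 22.1 CPM (1.76 ± 0.34, adjusted p = 0.000986). These 3 rose on both days. The collagen IV gene Col4a1 was at 111 and 66.9 CPM and 188 and 218 CPM and was not called. The genes wb, of a laminin, went from 89.6 and 97.6 CPM to 55.8 and 38.1 CPM (not called without tumour replicate 2), and Ppn, papilin, from 664 and 918 CPM to 442 and 327 CPM (-1.04 ± 0.24).

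Polarity and junction genes moved both ways, with 3 of 18 tested members rising, 5 falling and a median of -0.05. The apical gene sdt rose from 161 and 194 CPM to 359.7 and 285 CPM (0.86 ± 0.19, adjusted p = 0.00257), and l(2)gl, a partner of scrib, from 430.3 and 511 CPM to 692 and 642 CPM (0.50 ± 0.13, not called without control or tumour replicate 1). The septate junction genes Fas3 and Gli fell from 902 and 988 CPM to 580.3 and 593 CPM and from 409.8 and 469 CPM to 287 and 246 CPM (-0.69 ± 0.09, adjusted p = 3.78e-05, and -0.72 ± 0.10, adjusted p = 5.98e-05). The groups were separate in these 4 genes, all with changes under 1 in size. The E-cadherin gene shg was at 559.8 and 596 CPM and 722 and 602 CPM and was not called.

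Chitin and cuticle genes rose in 6 of 14 tested members and fell in 2 (median 0.89). Fewer members were called without either control or without tumour replicate 1, and more without tumour replicate 2. The chitin-binding protein gene obst-E was at 0.293 and 5.21 CPM in control and 80.3 and 28.9 CPM in tumour libraries (4.29 ± 0.90, adjusted p = 0.00197, with 3.37 without tumour replicate 1 and 7.48 without control replicate 2). The related gene obst-A fell from 232 and 277 CPM to 88.4 and 90.3 CPM (-1.51 ± 0.14, adjusted p = 2.07e-06), and pio, of the apical matrix, from 1040.0 and 1293 CPM to 554 and 524 CPM (-1.11 ± 0.12, adjusted p = 8.37e-06). Members of the one family thus moved in opposite directions.

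Genes of glycolysis stood higher in the day 9 than in the day 11 tumour library. All 11 tested members were higher in the day 9 library than in both controls, and 4 were in the day 11 library. Of all genes tested 52.3% were higher on day 9 than on day 11, and 4.34% at least 2-fold higher in CPM + 1. Of the 11 members, 11 and 9 were. The lactate dehydrogenase gene Ldh was at 23.6 and 55.8 CPM in control and 3463 and 397 CPM in tumour libraries. The phosphofructokinase gene Pfk was at 199 and 210.2 CPM and 640.4 and 174 CPM, and the aldolase gene Ald1 at 518 and 569 CPM and 1936 and 636 CPM. The day 11 level of Pfk lay below both controls.

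With such spread between tumour libraries 2 of the 11 genes were called, Ldh (5.60 ± 1.47, adjusted p = 0.0085) and Gapdh1 (0.88 ± 0.30, adjusted p = 0.0329), at a median of 0.88. Without tumour replicate 1 or control replicate 1 none was called, without control replicate 2, 1 and without tumour replicate 2, 6. Ldh changed by 3.32 without tumour replicate 1. No member fell, neither at an unadjusted p under 0.05 in edgeR nor by limma-voom or DESeq2. The FGF gene bnl, which attracts tracheal branches and like Ldh is known as a target of the hypoxia factor Sima, was at 5.72 and 8.93 CPM in control and 248 and 12.5 CPM in tumour libraries (4.14 ± 1.38, adjusted p = 0.0298, and 0.77 without tumour replicate 1). This call ended without tumour replicate 1 or either control. The same split by day was seen in the other discs of the same genotype, where Ldh was at 1953 and 83 CPM in eye-antennal and 4119 and 403 CPM in wing tumours. Age, dissection and library are the same split here, 1 library a day, and cannot be told apart.

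Heat shock genes followed the same split, with few calls between groups. Of 9 tested members 1 rose and 1 fell, with a median of 0.11, all 9 were higher on day 9 than on day 11, and 7 of them at least 2-fold. Hsp68 was at 25.1 and 466 CPM in control and 889.9 and 78.1 CPM in tumour libraries, so that both groups held a high and a low library. The change was 0.98 ± 1.75 (adjusted p = 0.692). The endoplasmic reticulum chaperone gene Hsc70-3 fell from 1929 and 2626 CPM to 1277 and 672 CPM (-1.22 ± 0.32, adjusted p = 0.00771), and Hsp60A, of mitochondria, rose (0.61 ± 0.21). The call of Hsc70-3 ended without control replicate 2 or tumour replicate 2, and that of Hsp60A without either control library or without tumour replicate 1. Without control replicate 2 no member was called.

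**Figure D4:**
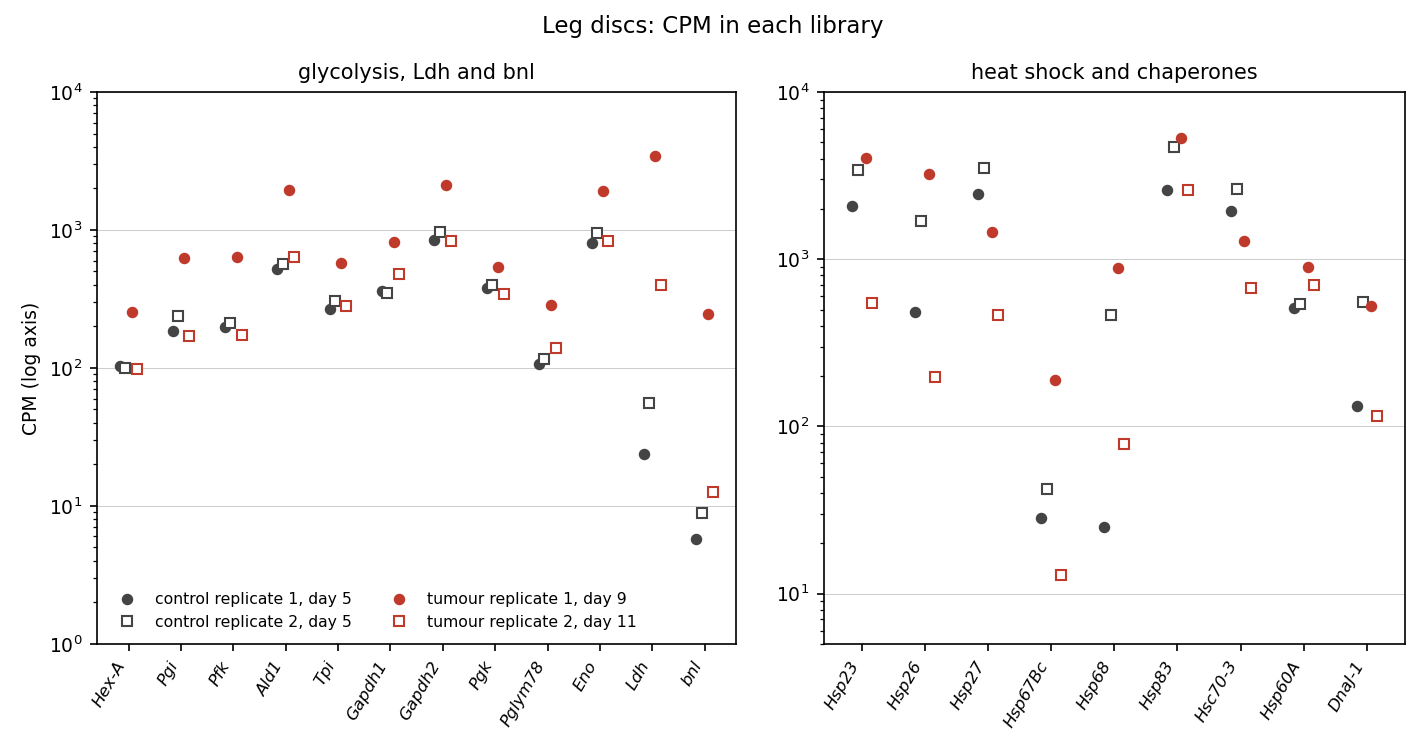
Level of the glycolysis genes with bnl (left) and of the heat shock genes (right) in each leg library, in CPM on a log axis. Grey marks are control and red marks tumour libraries, circles replicate 1 and squares replicate 2; the day 9 tumour library (red circles) lies above both controls for every glycolysis gene, while the day 11 library (red squares) lies above both for 4 of the 11.

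Detoxification genes rose in 8 of 11 tested members and 1 fell (median 2.09). The glutathione transferase gene GstD1, an output of the Nrf2 homologue Cnc, was at 819 and 967 CPM in control and 4561 and 3061 CPM in tumour libraries (2.09 ± 0.33, adjusted p = 0.000226). GstE6 rose from 1.32 and 8.73 CPM to 162 and 149.9 CPM (4.94 ± 0.53, adjusted p = 7.46e-06, with 4.16 without control replicate 1 and 6.87 without control replicate 2), and GstE1 from 16 and 18.9 CPM to 73.4 and 69.7 CPM (2.03 ± 0.17, adjusted p = 7.97e-07). Gclc, which makes the first step of glutathione synthesis, rose from 17.8 and 24.1 CPM to 105 and 97.2 CPM (2.27 ± 0.22, adjusted p = 3.24e-06). In these 4 both days were above both controls. Catalase (Cat) fell from 445 and 588 CPM to 144 and 160.4 CPM (-1.76 ± 0.14, adjusted p = 6.79e-07), and the superoxide dismutase genes Sod1 and Sod2 were not called.

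Cell death genes moved both ways, with 5 of 14 tested members rising and 4 falling (median 0.09). The death activator rpr was at 11.5 and 15.1 CPM in control and 29.3 and 26.4 CPM in tumour libraries (1.06 ± 0.19, adjusted p = 0.00057). The initiator caspase gene Dronc went from 131 and 149.8 CPM to 271 and 220.5 CPM (0.81 ± 0.15, adjusted p = 0.000602). The p53 gene rose from 19.4 and 20.8 CPM to 53.6 and 46.6 CPM (1.31 ± 0.15, adjusted p = 1.45e-05) and its target Corp from 2.13 and 3.04 CPM to 34.8 and 17.6 CPM (3.33 ± 0.38, adjusted p = 1.06e-05). Tumour libraries were above both controls for these 4, while the activator gene hid went from 173 and 163 CPM to 139 and 129 CPM (-0.33 ± 0.12), a call that ended when any 1 of the 4 libraries was left out.

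In the Toll and Imd pathways 5 of 18 tested members rose and 2 fell (median 0.54). Fewer were called without either control or without tumour replicate 1, and more without tumour replicate 2. The recognition protein gene PGRP-SA was at 1.25 and 3.04 CPM in control and 60.2 and 57.6 CPM in tumour libraries (4.76 ± 0.47, adjusted p = 3.86e-06, and 5.55 without control replicate 2), and the NF-kappaB gene Dif at 3.3 and 4.19 CPM and 39.9 and 41.3 CPM (3.43 ± 0.34, adjusted p = 3.74e-06). The receptor gene Tl fell from 143 and 198 CPM to 70 and 45.3 CPM (-1.57 ± 0.31, adjusted p = 0.00131). Groups did not overlap in any of the 3.

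Cell cycle genes were lower or not called: 7 of 22 tested members fell and 1, RnrL, rose, with a median of -0.25. CycA was at 357 and 352 CPM in control and 202 and 250.0 CPM in tumour libraries (-0.65 ± 0.12, adjusted p = 0.000511), and CycB, its partner in mitotic entry, at 340.2 and 327 CPM and 214 and 226 CPM (-0.60 ± 0.08, adjusted p = 3.96e-05). Replication genes such as PCNA, at 189 and 180.1 CPM in control and 164 and 284 CPM in tumour libraries, were mostly not called. On day 9, 2 of the 22 were higher than on day 11. Fewer members were called without either control or without tumour replicate 1, and more without tumour replicate 2.

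Most transcripts of the mitochondrial genome that were counted in control libraries were nearly absent from the tumour libraries. Of 15 genes 6 were tested and 5 of them fell, and the 15 summed to 328 and 332 CPM in control and 2.73 and 4.44 CPM in tumour libraries. The cytochrome oxidase gene mt:CoIII had 2368 and 2621 reads in control and 4 reads in each tumour library (adjusted p = 5.84e-11). The NADH dehydrogenase genes mt:ND4 and mt:ND1 were at 67.5 and 61.6 CPM and 55.6 and 63.5 CPM in control libraries and had at most 4 reads in any tumour library. Both tumour libraries were at or near 0 for these genes, and no fold is given for such counts. The control level was itself uneven over the genome, since mt:CoI had 37 and 34 reads (6 and 13 in tumour libraries) and mt:ND3, mt:ND6 and mt:srRNA none. Reads with several placements, which were not assigned to genes, were 68.3% and 54.4% of lines in tumour and at most 22.9% in control libraries, and their part in this result was not tested. Of 32 tested NADH dehydrogenase subunit genes of the nucleus 8 rose and 1 fell (median 0.24), and these 9 calls became 2 without either control library, 3 without tumour replicate 2 and 14 without tumour replicate 1.

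Markers of other cells of the disc also moved. Myoblasts, which lie under the leg epithelium and form the leg muscles, had 7 of 13 tested markers lower and none higher (median -1.12; also none at an unadjusted p under 0.05 in edgeR or by limma-voom or DESeq2), and the sum over the list was 546 and 614 CPM in control and 332.5 and 280.4 CPM in tumour libraries. The FGF adaptor gene stumps was at 74.5 and 77.5 CPM and 32.4 and 37.7 CPM (-1.12 ± 0.19, adjusted p = 0.0003). The homeobox gene lbl, of leg muscle precursors, went from 69.7 and 85.8 CPM to 26 and 26 CPM (-1.58 ± 0.26, adjusted p = 0.000309), and Sox102F from 45.3 and 35.4 CPM to 8.03 and 5.02 CPM (-2.63 ± 0.37, adjusted p = 7.26e-05). Groups did not overlap in these 3. Of the defining genes, Him fell from 8.51 and 14.3 CPM to 1.41 and 0.509 CPM (-3.57 ± 0.78, adjusted p = 0.00228). The defining gene twi fell from 22.7 and 31 CPM to 8.03 and 11.4 CPM (-1.47 ± 0.41, adjusted p = 0.0113). This call of twi ended without control replicate 2 or tumour replicate 1. The defining genes zfh1 (51 and 56.1 CPM and 40.5 and 38.6 CPM) and Mef2 (59.3 and 70.9 CPM and 60.2 and 59.4 CPM) were not called. None of 8 tested genes of differentiated muscle was called by edgeR or limma-voom (1 by DESeq2, and 1 at an unadjusted p under 0.05 in edgeR).

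Of 11 tested hemocyte genes 1 rose and 1 fell. The rise was Hml, the hemolectin of plasmatocytes, at 12 and 6.22 CPM in control and 89.8 and 103 CPM in tumour libraries (3.40 ± 0.94, adjusted p = 0.0112), a call that ended without control replicate 2. Pxn was at 47.2 and 19.1 CPM in control and 94.8 and 110 CPM in tumour libraries and was not called. The median over this list was 0.67. Both tumour libraries were above both controls for 6 of the 11 genes and below both for 3. The sum over the list was 906 and 1124 CPM in control and 841 and 725 CPM in tumour libraries, with no marker at 0. Glial genes were split, with 3 of 7 rising and 3 falling: moody, a receptor of the blood-brain barrier, rose from 13.6 and 17.5 CPM to 144 and 92 CPM (2.92 ± 0.26, adjusted p = 1.28e-06), while the fate gene gcm was at 3.89 and 4.74 CPM and 0.176 and 0.218 CPM. The glial marker repo fell from 16.1 and 12.65 CPM to 3.7 and 8.66 CPM (-1.21 ± 0.31, adjusted p = 0.00697), a call that ended without control or tumour replicate 1. Neuronal genes fell in 5 of 7 tested members, but none was called without control replicate 1, or without either tumour library. By limma-voom 1 was called. Their sum was 290.9 and 98.2 CPM in control and 90.2 and 63.5 CPM in tumour libraries. None of 7 fat body genes was called by edgeR or limma-voom (1 by DESeq2, and 1 at an unadjusted p under 0.05 in edgeR), at sums of 456 and 1320 CPM in control and 37.5 and 281 CPM in tumour libraries. Salivary gland genes summed to 4.03 and 67.8 CPM in control and 0.441 and 0.8 CPM in tumour libraries, and midgut genes to 135 and 2.71 CPM and 2.12 and 0.8 CPM. Of 4 tested genes of the tracheal list 1 rose, the FGF gene bnl, which attracts tracheal branches (4.14 ± 1.38, and 0.77 without tumour replicate 1). The genes vvl and kni fell (-1.02 ± 0.22 and -1.09 ± 0.24). The gene trh was at 101 and 111 CPM in control and 50.3 and 59.2 CPM in tumour libraries and was not called. Of 5 germline genes AGO3, of the piRNA pathway, rose from 2.57 and 2.1 CPM to 12 and 10.8 CPM (2.28 ± 0.29, adjusted p = 2.74e-05) and krimp, of the same pathway, fell from 8.88 and 7.58 CPM to 1.94 and 1.75 CPM (-2.15 ± 0.34, adjusted p = 0.000179).

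The change in leg discs was then set against the mean change in eye-antennal and wing discs of the same genotypes, in the same fit. The difference was called for 163 of 9814 genes (1.66%), 74 with a more positive and 89 with a more negative change in leg discs. At an unadjusted p under 0.05 it was 1317. Tumour libraries of 1 replicate number were collected on the same day in all 3 discs. With replicate terms within each genotype, a fit added after the data were seen, 322 differences were called, CG32625 was not called (adjusted p = 0.0501) and Scr (0.0485) and hh (0.0241) were. With 1 replicate term for all libraries it was 137, without the calls of CG32625, SP2353, cher, mew and GstE1. Most genes described above, from JNK to ecdysone, were not called here, which does not show that they changed alike. The number called depended on single libraries: it was 75 without control leg replicate 1 and 83 without tumour leg replicate 2. Of the other discs' libraries it was 92 and 86 without control eye-antennal replicate 1 and 2, 94 without control wing replicate 1 and 252 without tumour wing replicate 1. The following genes held their call without any 1 of the 12 libraries of the comparison unless a library is named.

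**Figure D5:**
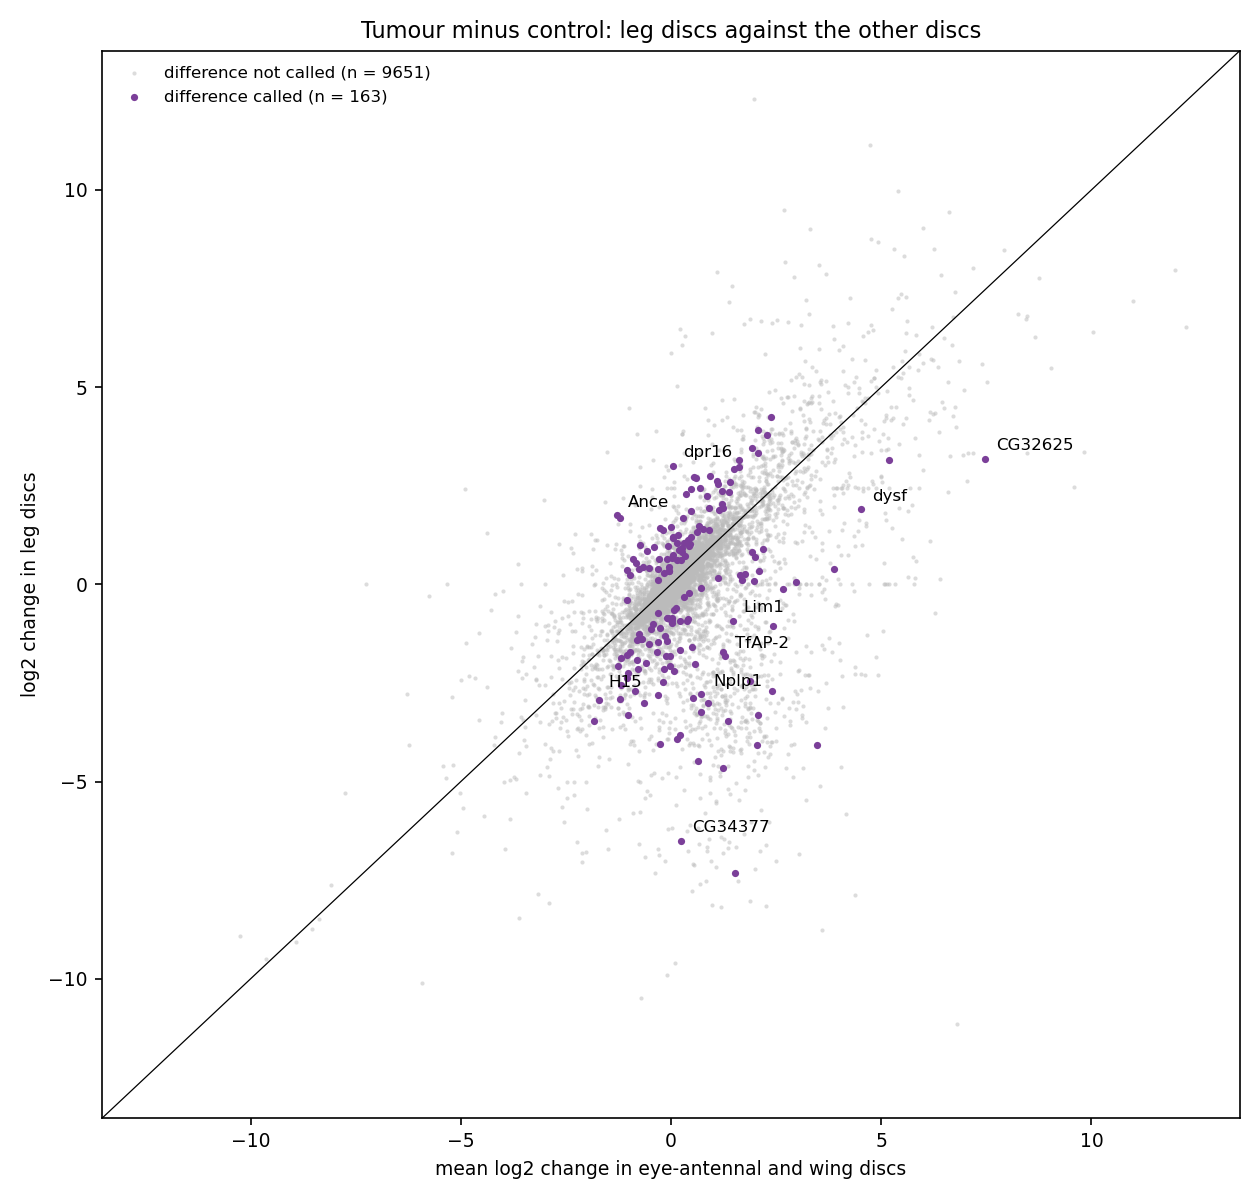
Change in leg discs (vertical) against the mean change in eye-antennal and wing discs (horizontal), both as log2 of tumour over control, for every gene tested. The line marks equal change, purple points are the 163 genes whose difference was called and grey points all others; dpr16 and Ance lie above the line, and Lim1, TfAP-2, H15, Nplp1, CG34377, dysf and CG32625 below it.

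Among lists of leg genes, whose members were chosen with results known, the difference was called in 4 of 17 tested genes of proximodistal patterning, 6 of 16 of Wingless and Dpp signalling and 3 of 19 of joints and Notch, all more negative in leg discs, beside 1.66% of all genes. TfAP-2 fell in leg discs and rose in tumours of the other discs, by 1.62 ± 0.26 in eye-antennal and 0.94 ± 0.28 in wing discs, a difference of -3.11 ± 0.32 (adjusted p = 0.00018). Lim1 did likewise, at 247 and 194 CPM in eye-antennal tumours against 44.3 and 46 CPM in their controls, and differed by -2.39 ± 0.23 (adjusted p = 0.00018). In wing discs Lim1 was low, at 3.42 and 4.5 CPM in control and 6.88 and 5.62 CPM in tumour libraries. For dysf, which rose in leg discs, the rise was larger elsewhere, from 6.89 and 6.55 CPM to 329 and 342 CPM in eye-antennal discs, and the difference was -2.63 ± 0.37 (adjusted p = 0.0023). All 3 stood higher in eye-antennal than in leg tumours.

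The ventral and dorsal genes differed as well. H15 changed by -0.05 ± 0.30 in eye-antennal and -0.57 ± 0.36 in wing discs, and the difference was -2.50 ± 0.39 (adjusted p = 0.00419). In wing discs H15 was low throughout, at 1.75 and 4.06 CPM in control and 2.38 and 1.59 CPM in tumour libraries. The gene lbl, given below, was also low in control wing discs, at 1.59 and 2.66 CPM. The part of such starting levels in the differences was not tested. For bi the difference was -1.35 ± 0.19 (adjusted p = 0.00251), since it fell in all 3 discs and furthest in leg discs. The joint gene drm (-1.14 ± 0.15), the Iroquois gene ara (-1.37 ± 0.20), the muscle precursor gene lbl (-2.08 ± 0.34) and obst-A (-0.98 ± 0.17) were also more negative, with adjusted p from 0.00169 to 0.00831. The distal gene al (-1.33 ± 0.24, adjusted p = 0.0118) lost its call without tumour leg replicate 2, and mid (-1.28 ± 0.23) without tumour leg replicate 1. The calls of Sp1 (-1.88 ± 0.39) and bab1 (-1.81 ± 0.40) ended without any of 8 libraries each, and those of Dad (-0.66 ± 0.13) and nkd (-0.85 ± 0.19) without 5 and 6. Scr, which fell in leg discs and was at 71.6 CPM or less in the control and tumour libraries of the other discs, differed by -3.33 ± 0.79 and was not called (adjusted p = 0.0506).

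Among the 141 genes with a called difference and at least 10 CPM in a leg group, the 6 most negative differences were those of CG34377, CG32625, SP2353, sbm, Nplp1 and TfAP-2. Nplp1, which encodes a neuropeptide precursor, was at 34 and 25.4 CPM in control and 3.35 and 5.17 CPM in tumour leg libraries, and at 82.8 and 67.3 CPM and 121 and 94.2 CPM in eye-antennal discs, a difference of -3.51 ± 0.36 (adjusted p = 0.00018). It fell in leg discs and was not called in the other discs. CG34377 was at 21.1 and 9.47 CPM in control leg libraries and had 2 reads in each tumour leg library (-6.74 ± 1.25, adjusted p = 0.0141). CG32625 rose in all 3 discs, from a leg control level that came mostly from replicate 2 (0.44 and 2.91 CPM, -4.29 ± 0.97, adjusted p = 0.039). SP2353 and sbm differed by -4.07 ± 0.92 and -3.95 ± 0.84, and in leg controls were higher in replicate 1, the library with more neuronal RNA. CG34377, SP2353 and sbm also fell in eye-antennal discs (-1.96, -2.31 and -2.05). In control wing libraries all 3 were at 0.59 CPM or less. Their changes in wing discs were 2.44, 2.59 and 3.47, of which only that of sbm was called. The difference in CG34377 lost its call without any of 4 libraries, that in CG32625 and sbm without any of 9, and that in SP2353 without any of 10.

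Among the same 141 genes the 6 most positive differences were those of Ance, dpr16, Trim9, Sdb, CG10863 and CG6126. Ance, the angiotensin-converting enzyme homologue, rose from 257 and 350.3 CPM to 1033 and 1004 CPM in leg discs, while it was at 2304 and 2736 CPM in control and 871 and 908 CPM in tumour eye-antennal discs, and at 845 and 642 CPM and 383 and 332 CPM in wing discs. The difference was 3.02 ± 0.34 (adjusted p = 0.000449), and leg discs, the lowest of the 3 among controls, were the highest among tumours. The immunoglobulin-domain gene dpr16 went from 6.75 and 5.34 CPM to 55.8 and 41.4 CPM in leg discs and stayed at or under 15.6 CPM in all other control and tumour libraries (2.96 ± 0.35, adjusted p = 0.000574). Sdb went from 48.4 and 48.5 CPM to 395 and 235 CPM (2.12 ± 0.36, adjusted p = 0.00775), and CG6126 from 5.28 and 4.8 CPM to 22.2 and 27 CPM (1.93 ± 0.28, adjusted p = 0.00251). Leg tumour libraries were the highest of the 12 for dpr16, Sdb and CG6126. The difference in CG10863 (1.93 ± 0.36) lost its call without control or tumour leg replicate 2, and that in Trim9 (2.18 ± 0.46) without any of 5 libraries.

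Among list members the JAK/STAT target apt was also more positive, at 24.1 and 21.8 CPM in control and 238 and 260.5 CPM in tumour leg discs, and at 75 and 87 CPM in eye-antennal and 98.2 and 106 CPM in wing tumours (1.52 ± 0.22, adjusted p = 0.00287). Of the cytoskeletal and adhesion genes cher (0.70 ± 0.16) rose in all 3 discs and furthest in leg discs, and sn (1.12 ± 0.24) and mew (1.05 ± 0.24) rose in leg discs and were not called in the others, with adjusted p of 0.0415, 0.0279 and 0.0403. These 3 calls ended without any of 9, 5 and 7 libraries, in that order. The Wingless receptor gene fz (-0.61 ± 0.15, adjusted p = 0.0487) and the neural gene sca (-1.13 ± 0.24, adjusted p = 0.0268) were more negative and GstE1 (0.83 ± 0.20, adjusted p = 0.0494) more positive, calls that ended without any of 8, 6 and 9 libraries.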

How the data were processed

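Total RNA of leg, eye-antennal and wing discs was sequenced in 27 libraries of 15 groups of genotype and disc. Per the submitters' processing notes the authors used TopHat2, HTSeq and the dm3 genome build, with versions not given in the sources used here, and the deposited values are raw read counts per gene. The 5 summary lines of HTSeq were left out of library sizes and tests. A gene entered the tests if it reached 1 CPM in 2 or more libraries. All 27 libraries were fitted in edgeR 4.0.16 (R 4.3.3) with TMM scaling, 1 mean per group and robust quasi-likelihood F-tests, with Benjamini-Hochberg adjustment and a threshold of 0.05. Each standard error is the size of the change over the root of its F value. Replicates are separate dissections of pooled larvae. Scripts were tested on simulated data. The members and gene lists were chosen with earlier results of these data known. The named genes are the 12 largest rises and the 12 largest falls with at least 10 CPM in the higher group and no overlap between groups, and, among genes with a called difference between discs and at least 10 CPM in a leg group, the 6 largest differences each way, beside genes of the lists. Per the labels, tumour libraries of the same replicate number were collected on the same day in every disc, and control libraries all on day 5. Deviations of replicate 1 from its group mean correlated across discs at 0.051 to 0.429 in tumour and -0.086 to 0.304 in control libraries, over 9814 genes. Alternatives were DESeq2 1.42.0 (size factors or test), limma 3.58.1, other filters and sample sets, a replicate block (also within genotype, added after the data were seen) and leaving out each library. IDs with no symbol are given as IDs. Tables were derived with pandas 2.3.3 and figures with matplotlib 3.10.9 in Python 3.11.15.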

Additional observations from a re-analysis of the deposited data

Results flagged for a closer look

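The change between tumour and control differed between leg discs and the mean of eye-antennal and wing discs for 163 genes, by the test of that difference in edgeR (adjusted p under 0.05). Each value here is the change in leg discs minus that mean, in log2 units. Among the 141 genes with a called difference and at least 10 CPM in a leg group, the most negative were CG34377 (-6.74), CG32625 (-4.29), SP2353 (-4.07), sbm (-3.95), Nplp1 (-3.51) and TfAP-2 (-3.11). The most positive of these were Ance (3.02), dpr16 (2.96), Trim9 (2.18), Sdb (2.12), CG10863 (1.93) and CG6126 (1.93).

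Among list members the tarsal and joint genes dysf (-2.63), Lim1 (-2.39), bab1 (-1.81), al (-1.33) and drm (-1.14) were more negative in leg discs. So were the leg gene Sp1 (-1.88), the ventral genes H15 (-2.50) and mid (-1.28), the dorsal gene bi (-1.35), the feedback inhibitors nkd (-0.85) and Dad (-0.66), ara (-1.37), lbl (-2.08), sca (-1.13), fz (-0.61) and obst-A (-0.98). More positive were apt (1.52), sn (1.12), mew (1.05), GstE1 (0.83) and cher (0.70). Of the 33 named genes with a called difference, 15 kept the call in each of the 12 fits that left out 1 library.

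Outside the gene counts, reads with several placements took 68.3% of alignment lines in tumour leg replicate 1 and 54.4% in replicate 2, above the 16.2% and 22.9% of the control leg libraries. What these reads are was not tested.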

How the results depend on the processing

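The 3759 calls in leg discs became 2135 with the 4 leg libraries alone and 1497 when a change of at least 2-fold was required. They ranged from 2560 to 3041 when 1 leg library was left out, and from 3210 to 4060 under the other scalings, filters and tools and with the 12 control and tumour libraries. Of the list members, 229 were called, and 175 to 202 without 1 library. The 24 named genes kept 19 to 22 calls without 1 library and 16 by limma-voom. The 163 differences between discs became 61 with the 12 control and tumour libraries, 103 by limma-voom and 459 by DESeq2, and ranged from 75 to 252 without 1 library.

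Between control and tumour leg libraries the deviations of replicate 1 from the group means correlated at -0.045 over 9814 genes. This does not show whether replicate numbers pair these libraries. The same value was only 0.051 between leg and eye-antennal tumours, which share a collection day. With a replicate block in the fit of all libraries 3694 genes, 137 differences and 228 list members were called. Across discs, where a tumour number marks a day, a replicate block within genotype called 322 differences, and of the 33 named called differences it ended only that of CG32625. With the block and the 4 leg libraries, 865 genes and 96 list members were called, in a fit with fewer residual degrees of freedom.

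Changes that were not called turned direction in 6 cases. Without 1 library that of hh ranged from -0.31 to 0.07 (0.00 without control replicate 2 and 0.07 without tumour replicate 2), that of Pfk from -0.23 to 1.62 and that of Hsp68 from -1.65 to 4.25, with both lowest values without tumour replicate 1. That of Mef2 ranged from -0.24 to 0.01 (0.01 without control replicate 2) and that of PCNA from -0.19 (without tumour replicate 2) to 0.62. The cause was not tested, other than that the day 9 library held the high values of Pfk and Hsp68.

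With 2 libraries a group, and each tumour library from another day, the spread between replicates holds the spread between days. Genes with few reads in a group have folds that depend on the fit. In many families the number of calls moved over 1.5-fold when 1 library was left out.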

Other observations

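Gene families outside the pathway lists were counted in the same fit, in which 19.7% of all genes tested rose and 18.6% fell. Glutathione S-transferases, which couple glutathione to toxic compounds, rose in 18 of 30 tested members and fell in 3, with a median change of 1.13. The sum over the family was 2401 and 2695 CPM in control and 7015 and 5275 CPM in tumour libraries. Cytochrome P450 genes rose in 20 of 61 and fell in 3, while their sum stayed at 2393 and 2434 CPM in control and 2370 and 2292 CPM in tumour libraries. Serpins, inhibitors of proteases, rose in 6 of 15 tested members and fell in 3.

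Genes of protein turnover moved in smaller steps. Mitochondrial ribosomal proteins rose in 31 of 70 tested members and none fell (median 0.36), but the number called was 14 and 17 without control replicate 1 and 2 and 7 without tumour replicate 2. Aminoacyl-tRNA synthetases, which load tRNAs, rose in 10 of 30 (median 0.26), with 4 and 6 calls without control replicate 1 and 2 and 5 without tumour replicate 1. Proteasome subunits fell in 18 of 35 and rose in 2 (median -0.29), with 10 and 8 calls without control replicate 1 and 2 and 7 without tumour replicate 1. Cytosolic ribosomal proteins had 6 rises and 3 falls among 82 tested members, with 5 calls in all without either control. Of the 11 genes of the E(spl) complex, which Notch signalling induces, 7 fell and none rose (median -0.90), with 4 calls without control replicate 2 or tumour replicate 2.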
